A study of Papaver somniferum with 12 samples.

Results

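The 100 unigenes with the highest mean level in opium poppy leaves were described across growth, out of 61856 unigenes in the table. They were chosen by their mean RPKM (reads mapped to a unigene, scaled by its length in kilobases and by the library's mapped reads) over all 12 libraries, after setting aside the 11 identifiers that start with PB.734. Of those 11, PB.734.2622 alone would have entered, with a mean of 61663 RPKM, and the next highest had 38.4 RPKM. The leaves came from Papaver somniferum of the original cultivar of the study, kept in an experimental plot, and the labels separate the groups by growth phase alone. The 4 phases, with 3 libraries each, were seedling, jointing (the stem had elongated), bolting (a small bud was first visible) and florescence (the first bloom). For each phase independent samples of leaf were taken, on calendar dates that differ between phases. Growth phase, plant age and season therefore cannot be told apart. The study defines its leaf sample as the top leaf of the plant.

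A leaf draws much of its messenger RNA from few genes. In plants in general the most abundant leaf transcripts include those for light harvesting, carbon fixation and photorespiration, and leaves that age beside opening flowers usually turn from building this machinery to exporting nutrients. Whether the florescence leaves sampled here were ageing is not known. In opium poppy the leaf also carries laticifers, the cells that hold latex, and morphinan alkaloids collect there with abundant latex proteins. None of the identifiers in the table was paired with a gene name in the sources used here, and 0 of the 61856 matched the RefSeq gene table of the species. The members are therefore described by identifier, level and change, with no role given, and leaf identity could not be checked on marker genes.

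RPKM is a share of the mapped reads. A fall of the most abundant unigenes and a rise of all the others thus cannot be told apart from these values, nor can fewer cells of a type be told from less RNA per cell. The number of reads behind a value is unknown. Jointing replicate 3 stood apart before any comparison. In it 94 of the 100 members lay below both other jointing libraries, against 27.3% of the 31242 unigenes tested, and the median member lay 0.39 below the jointing mean on the log2(RPKM + 1) scale. In the study's table of RNA integrity this library has the highest score of the 12, and the florescence libraries score below all seedling and jointing libraries and overlap with bolting. The part of RNA integrity in the levels below was not tested.

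The level of the members declined steeply with position. The highest, PB.115.445, averaged 28982 RPKM, the median member 2486 RPKM and the last 1079.5 RPKM, while the median over all unigenes was 1.04 RPKM. A mean of at least 5000 RPKM was reached by 23 members, 37 lay between 2000 and 5000 RPKM, and 40 lay below 2000 RPKM. None was at 0 in any library. These levels chose the members and are a description.

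**Figure D1:**
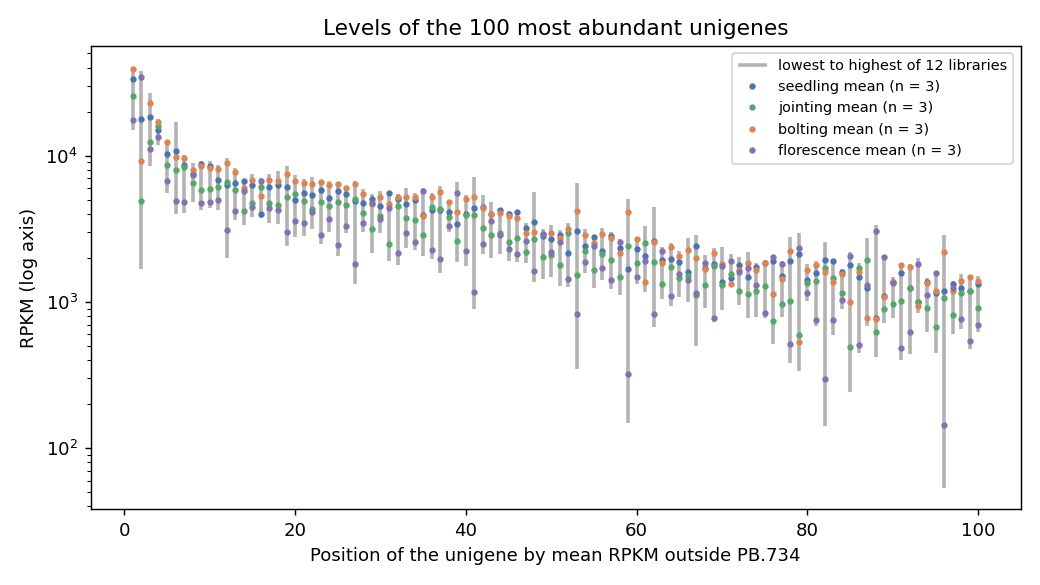
RPKM on a log axis against the position of each of the 100 unigenes by mean RPKM. Points are phase means of 3 libraries and grey bars span the lowest to the highest of 12 libraries; the longest bar, at position 96, reaches down to 53.2 RPKM in a florescence library.

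The limit of 100 fell within a dense run of values. Just inside it were PB.58233.3 with a mean of 1095 RPKM and PB.20844.6 with 1079.5 RPKM, and just outside it PB.1437.20 with 1074 RPKM and PB.7756.18 with 1044 RPKM. PB.1437.20 had 336, 334 and 312 RPKM in seedling leaves, 204, 255 and 150.2 in jointing leaves, 1051, 545 and 554 in bolting leaves and 2889, 3103 and 3157 in florescence leaves. It was thus kept out by its low level before flowering, whereas PB.58233.3 was kept in with 1424, 1464 and 1524 RPKM at bolting against 592, 556 and 475 at florescence.

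The members shared a feature of their identifiers that the rule did not use. By the usual naming of long-read pipelines the last number of such an identifier numbers an isoform of the locus given before it. It had a median of 33.5 among the members, up to 652 for PB.3853.652, and a median of 1 among all unigenes. The last number was at least 10 for 82 of the 100 members, against 6.06% of the unigenes tested and 3.13% of all. Each locus number occurred once in the table, so no member shared its locus number with another unigene and no isoforms of a locus could be compared. Across the 31242 tested unigenes the last number and the mean RPKM had a Spearman correlation of 0.323, a description across unigenes that are not independent. The long reads that gave the identifiers came from pooled RNA of this cultivar, with these leaf samples in the pool. The last number is therefore not independent of the levels that chose the members, and how far it follows them was not tested.

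The order of the members was more lasting at the top than at the end of the list. Of the 100 members 60 were among the 100 highest unigenes outside PB.734 in each of the 12 libraries, namely 49 of the first 50 and 11 of those ranked 51 to 100. By phase means, 97 members were among the 100 highest of seedling leaves, 87 of jointing leaves, 93 of bolting leaves and 84 of florescence leaves. In single libraries the number ran from 70, in jointing replicate 3, to 97, in seedling replicate 2. PB.115.445 was the highest member in the 9 libraries before flowering, and PB.225.272 took its place in the 3 florescence libraries. In all, 69 unigenes outside the list reached the 100 highest of at least 1 library.

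The members made up 0.162% of the unigenes and a far larger part of the signal. Their summed share of all RPKM was 36.4%, 38.5% and 36.3% in the seedling libraries, 33.2%, 33.0% and 24.1% in the jointing libraries, 42.1%, 37.7% and 38.3% in the bolting libraries and 33.3%, 29.7% and 28.2% in the florescence libraries. The phase means were 37.1% ± 1.25 (SD, n = 3 for each phase) in seedling leaves, 30.1% ± 5.19 in jointing leaves, 39.3% ± 2.38 in bolting leaves and 30.4% ± 2.60 in florescence leaves. All florescence libraries lay below all seedling and bolting libraries, and without jointing replicate 3 the jointing mean was 33.1%. The first 10 members alone held 12.2% ± 0.746, 9.23% ± 1.83, 12.5% ± 0.707 and 10.7% ± 1.02 in the same order of phases.

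**Figure D2:**
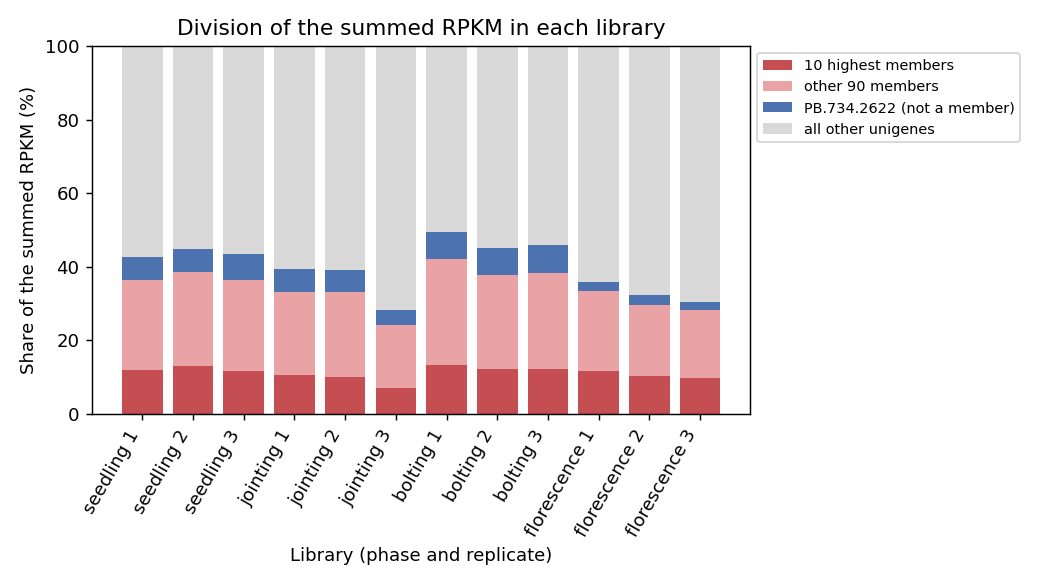
Share of the summed RPKM (%) in each of 12 libraries, stacked as the 10 highest members, the other 90 members, PB.734.2622 (set aside) and all other unigenes. The members reach 42.1% in bolting replicate 1 and 24.1% in jointing replicate 3.

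PB.734.2622, which was set aside, held 6.64% ± 0.444 of all RPKM in seedling leaves, 5.48% ± 1.17 in jointing leaves, 7.48% ± 0.0712 in bolting leaves and 2.34% ± 0.257 in florescence leaves. Of the RPKM left without PB.734 the members held 39.7% ± 1.26, 31.9% ± 5.85, 42.5% ± 2.58 and 31.1% ± 2.71 in the same order, so the jointing and florescence means were also the lower ones when that unigene was left out of the total.

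Over the 4 phases 41 of the 100 members varied, against 18.3% of the unigenes tested (moderated F test of limma, adjusted p under 0.05 and phase means at least 1 apart on the log2(RPKM + 1) scale). At the members' levels 1 on this scale is a 2-fold difference, and near 1 RPKM it takes more than that. The demand was thus stricter for low tested unigenes, here and in the shares given below. The highest mean of these 41 was at bolting for 27, at florescence for 9, at seedling for 3 and at jointing for 2. The lowest was at florescence for 30, at jointing for 9 and at bolting for 2. Among all varying unigenes the highest mean was at florescence for 49.5%, at jointing for 36.2%, at seedling for 9.38% and at bolting for 4.89%, and the lowest at florescence for 31.1%, at seedling for 30.5%, at bolting for 20.3% and at jointing for 18.1%. Without jointing replicate 3 the varying members numbered 37, against 16% of tested unigenes. These are counts within one fit, and no test was run on the list. Some varying members would not be on the list by the libraries outside the phase where they were highest. These were PB.58163.6, PB.57706.22, PB.14304.41 and PB.6922.24 for florescence and PB.56197.9 and PB.58233.3 for bolting. Their highest phase draws on the values that chose them.

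The libraries of single phases parted from the rest in the same manner. In 31 members all 3 bolting libraries lay above the other 9 libraries, against 0.611% of tested unigenes. In 27 members all florescence libraries lay below the other 9, against 5.23%, and in 20 members all jointing libraries did, against 1.89%. Florescence lay above the other 9 in 9 members, against 17.9% of tested unigenes. Among these PB.57706.22, PB.14304.41, PB.48883.30 and PB.6922.24 would not be members by the mean of the other 9 libraries. The same holds for PB.56197.9 and PB.58233.3 among the members with bolting above the rest. Their part of these counts draws on the values that chose them. Seedling lay above in 4 members (1.77%) and below in 1 (9.89%), jointing lay above in 0 (12.4%), and bolting lay below in 3 (4.33%). Without jointing replicate 3 the members with florescence below all other libraries numbered 57 (6.14% of tested unigenes), and those with jointing below numbered 20 (2.1%). Without bolting replicate 1 the members with seedling above the rest numbered 14 (2.19%). With libraries scaled by their median of ratios bolting lay above the rest in 22 members (1.96% of tested unigenes), florescence below in 18 (10.8%) and above in 4 (10.9%), and jointing below in 20 (6.19%).

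**Figure D3:**
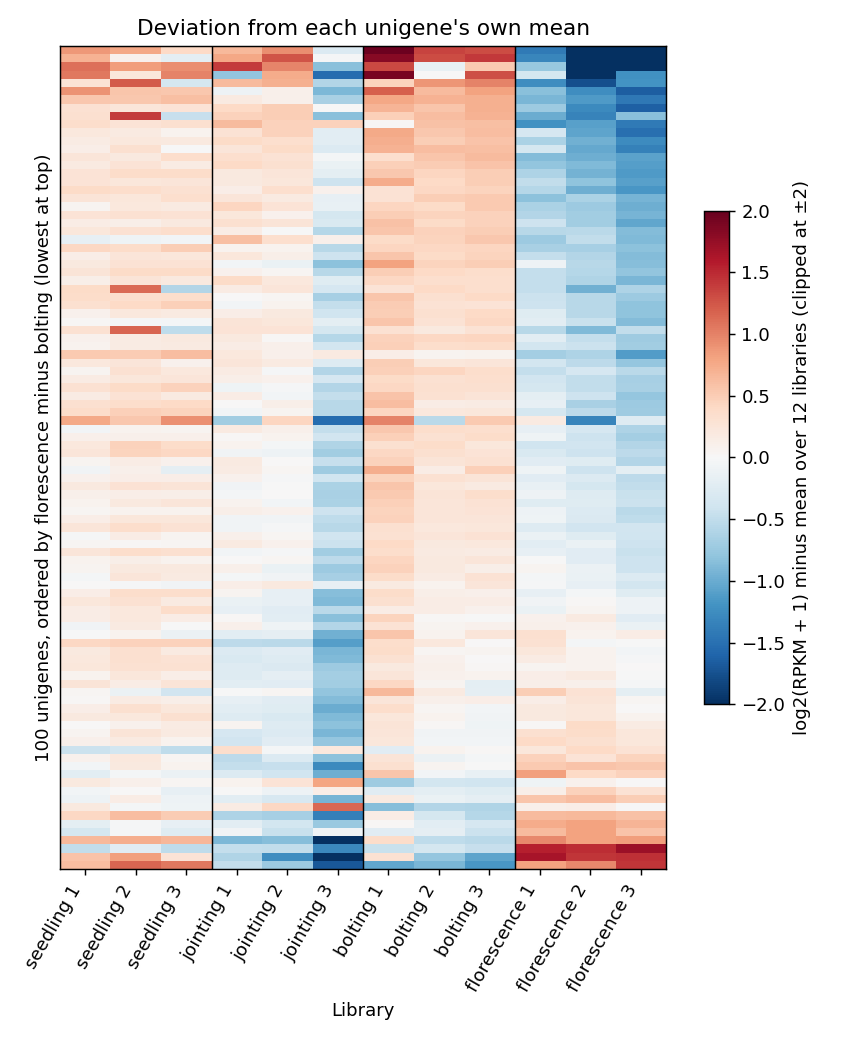
Deviation of log2(RPKM + 1) from each member's own mean over 12 libraries, clipped at 2 in either direction, with 100 members as lines ordered by florescence minus bolting and the libraries as columns. Most lines are red at bolting and blue at florescence and in jointing replicate 3, and the last lines are red at florescence.

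The first question of the design was how leaves at each later phase compare with seedling leaves. At florescence 23 of the 100 members were called, 1 higher and 22 lower, against 9.43% of the unigenes tested (6.43% higher and 3% lower; limma, adjusted p under 0.05 and at least 1 apart on the log2(RPKM + 1) scale). The median member differed from seedling by -0.54 and the median of all tested unigenes by 0.33 on the log2(RPKM + 1) scale. The 1 higher member, PB.57706.22, was on the list only through its florescence values, so its call draws on the values that chose it. The 22 lower members ran from -3.35 to -1.02, and the libraries of the phases were apart in each of them. Whatever the size, the florescence libraries lay below all seedling libraries in 68 members (11.1% of tested unigenes) and above them in 12 (51.8%). With the libraries scaled by their median of ratios, which sets the typical unigene near 0, the members split into 1 higher and 50 lower (2.21% and 5.4% of tested unigenes), and their median was -0.96. The split was 3 higher and 14 lower with equal totals of RPKM (9.52% and 2.6% of tested unigenes), and 7 higher and 10 lower with quantile normalization (2.5% and 4.39%), which forces 1 distribution on all libraries. At jointing 5 members were called, all lower, against 5.63% of tested unigenes (1.64% lower and 3.99% higher), and the libraries lay below those of seedling in 52 members (8.31%) and above in 3 (51%). Without jointing replicate 3 the calls numbered 4, again lower (0.915% of tested unigenes), and the libraries were below in 52 members (9.65%) and above in 15 (55.4%). In the fit on all 12 libraries no member was called higher at jointing (limma), and 3 had an unadjusted p under 0.05 in that direction. In that fit the median member differed from seedling by -0.36 and the median unigene by 0.34. With median-of-ratios scaling 22 members were lower at jointing and 0 higher (3.43% and 1.32% of tested unigenes), and with quantile normalization 4 were lower and 1 higher (2.47% and 1.52%). At bolting 1 member was called, lower, against 1.46% of tested unigenes (0.861% lower and 0.602% higher), the libraries lay above those of seedling in 37 members (16.6%) and below in 10 (12%), with a median difference of 0.12 over the members. No member was called higher at bolting (limma), and 7 had an unadjusted p under 0.05 in that direction.

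The later phases were also compared with each other. From bolting to florescence 34 members were called, 4 higher and 30 lower, against 8.06% of tested unigenes (5.47% higher and 2.6% lower), and the scaled values gave 3 higher and 55 lower (2.29% and 4.41%). Equal totals gave 7 higher and 22 lower (8.77% and 2.08%), and quantile normalization 10 higher and 15 lower (2.57% and 3.93%). The median member differed by -0.72 and the median unigene by 0.29, and the florescence libraries lay below all bolting libraries in 68 members (9.31%) and above in 15 (46.2%). From jointing to florescence 23 members were called, 9 higher and 14 lower, against 10.3% (4.66% higher and 5.59% lower), and the libraries were apart upward in 25 (22.7%) and downward in 30 (21.5%). The split was 10 higher and 10 lower with equal totals (5.61% and 4.97%). Without jointing replicate 3 it was 7 higher and 21 lower (4.44% and 5.06%), and the libraries were apart upward in 26 (33.4%) and downward in 62 (25%). Over all 12 libraries the median member differed by -0.25 and the median unigene by 0.01. From jointing to bolting 3 members were called, 2 higher and 1 lower, against 3.27% (0.272% higher and 3% lower), although the median member stood 0.49 higher and the median unigene at -0.26, and the bolting libraries lay above all jointing libraries in 73 members (4.79%) and below in 3 (41.8%). Without jointing replicate 3 the bolting libraries lay above in 73 members (5.75%) and below in 4 (46.3%). The count of calls was then 0 against 1.25% of tested unigenes, and 47 members had an unadjusted p under 0.05 (limma). With all 12 libraries the split was 8 higher and 0 lower under median-of-ratios scaling (0.675% and 1.17% of tested unigenes). It was 0 higher and 2 lower with quantile normalization (0.467% and 1.36%), so its direction depends on the scaling. These comparisons share libraries, so their counts do not stand apart from each other. Some calls are of members that were on the list only through 1 of the phases compared. From jointing to florescence these were PB.58163.6, PB.57706.22, PB.14304.41 and PB.6922.24 among the higher and PB.58233.3 among the lower. From bolting to florescence they were PB.58163.6 and PB.57706.22 among the higher and PB.56197.9 and PB.58233.3 among the lower. Since the members were chosen on the same 12 libraries, lists of 100 were also chosen from the 6 libraries outside each comparison. They shared 92 to 96 unigenes with the members and gave 24 calls for florescence against seedling and 34 for florescence against bolting. Of all tested unigenes 9.43% and 8.06% were called in these comparisons. For bolting against seedling and bolting against jointing such lists gave more calls than the members, as given in the closing section.

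**Figure D4:**
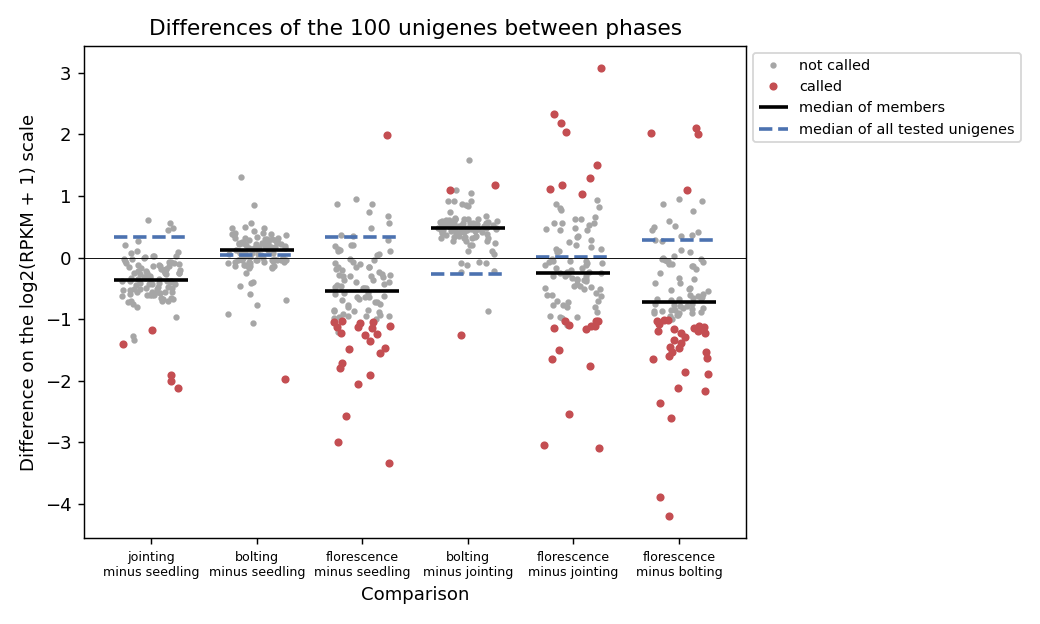
Difference on the log2(RPKM + 1) scale of each of the 100 members (points, red where called) in 6 comparisons of phases, with the median of the members (black) and of all tested unigenes (dashed blue). The member median is -0.72 for florescence minus bolting, where the median of all tested unigenes is 0.29.

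The 10 highest members were led by PB.115.445. It had 32074, 33839 and 35225 RPKM in seedling leaves, 30597, 27517 and 18471 in jointing leaves, 40412, 38042 and 38925 in bolting leaves and 18731, 18922 and 15029 in florescence leaves. The florescence values lay below those of seedling and bolting and overlapped with jointing, where replicate 3 was the lowest. From bolting to florescence it fell by 1.16 on the log2 scale (SE 0.19; limma, adjusted p = 0.00086), a ratio of phase means of 2.23 between bolting and florescence. Its difference between florescence and seedling was -0.95 ± 0.19 (SE; limma, adjusted p = 0.0023), just short of the 2-fold demand.

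PB.225.272, second by mean, followed another course. It had 17919, 21272 and 14512 RPKM in seedling leaves, 7915, 5067 and 1684 in jointing leaves, 14802, 7069 and 5766 in bolting leaves and 37663, 32553 and 32999.9 in florescence leaves. Its mean was lowest at jointing, where the libraries overlapped with bolting, and the florescence libraries lay above all others. Its difference was -2.12 ± 0.49 (SE; limma, adjusted p = 0.00842) from seedling to jointing, 3.08 ± 0.49 (SE; limma, adjusted p = 0.000673) from jointing to florescence and 2.02 ± 0.49 (SE; limma, adjusted p = 0.00728) from bolting to florescence. From seedling to florescence the libraries were apart but the difference of 0.96 ± 0.49 (SE; limma, adjusted p = 0.126) did not pass. Bolting replicate 1, at 14802 RPKM, stood within the seedling range, and the position of this unigene among those outside PB.734 ran from 1 to 57 over the libraries. The difference from seedling to jointing was -1.48 without jointing replicate 3, and that from bolting to florescence 2.43 without bolting replicate 1.

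The other members of the first 10 were steadier in position. PB.1930.403 had 17541, 18690.4 and 18759 RPKM in seedling leaves, 14677, 14028 and 8643 in jointing leaves, 26699, 20911 and 21653 in bolting leaves and 14262, 10392 and 8521 in florescence leaves, and its bolting libraries lay above all others. It fell by 1.09 from bolting to florescence (SE 0.23; limma, adjusted p = 0.00389), a call lost on the 2-fold demand without bolting replicate 1 (-0.98) and without florescence replicate 3 (-0.91). PB.1705.131 had 8212, 9037 and 8623 RPKM in seedling leaves, 9818, 8804 and 6378 in jointing leaves, 10047, 9526 and 9561 in bolting leaves and 5435, 4977 and 4033 in florescence leaves. It fell by 1.02 from bolting to florescence (SE 0.17; limma, adjusted p = 0.000958), and by less than 2-fold without those same libraries, with -0.998 and -0.90.

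PB.52.498 had 10140.4, 17057 and 5186 RPKM in seedling leaves, 8694, 9213 and 6141 in jointing leaves, 9379, 10169 and 9823 in bolting leaves and 5599, 3995 and 5070.3 in florescence leaves. Its seedling libraries ran from a value within the florescence range to the highest of all 12 libraries. The fall of 1.02 from bolting to florescence (SE 0.34; limma, adjusted p = 0.0337) passed in the fit on all libraries and did not without bolting replicate 1, 2 or 3 or florescence replicate 2 or 3, where adjusted p ran from 0.0637 to 0.104.

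Whether these falls from bolting to florescence reached 2-fold depended on the scaling, and their sign did not. With median-of-ratios scaling the differences of PB.115.445, PB.1930.403, PB.1705.131 and PB.52.498 were -1.53, -1.45, -1.39 and -1.38, all called. With equal totals outside PB.734 they were -1.07, which was called, and -0.997, -0.93 and -0.93, which were not. With equal totals of RPKM they were -0.996, -0.92, -0.86 and -0.85, and with quantile normalization -0.69, -0.65, -0.52 and -0.55, all under 2-fold. With quantile normalization PB.52.498 also missed the limit on adjusted p (limma, adjusted p = 0.156).

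PB.6825.361, PB.107.425 and PB.7620.113 differed between florescence and bolting by -0.90, -0.85 and -0.76 on the log2(RPKM + 1) scale, with adjusted p of 0.00368, 0.0017 and 0.00489 in limma, and none reached 2-fold. In all of them the florescence libraries lay below the bolting libraries. PB.107.425 had 8272, 8775 and 9246 RPKM in seedling leaves, 6340.2, 6589 and 4479.9 in jointing leaves, 8955, 8353 and 8348 in bolting leaves and 5252, 4759 and 4279.9 in florescence leaves. Its seedling and bolting libraries overlapped, and its jointing libraries lay below both.

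PB.46813.49 and PB.974.98 were the steadiest of the first 10, and with PB.57413.9 they had the smallest range of phase means among the members. PB.46813.49 had 15217, 15000.4 and 14487 RPKM in seedling leaves, 16711, 17384 and 13552 in jointing leaves, 17132, 15871 and 17924 in bolting leaves and 14902, 13509 and 11749 in florescence leaves, with phase means at most 0.35 apart (moderated F test of limma, adjusted p = 0.188). PB.974.98 had 6935, 8219 and 7209 RPKM in seedling leaves, 7751, 6857 and 4823 in jointing leaves, 8848, 7542 and 7721 in bolting leaves and 7774, 7669 and 6597 in florescence leaves, with phase means at most 0.34 apart (adjusted p = 0.36), and its lowest value was again in jointing replicate 3. PB.57413.9, at position 70, had phase means at most 0.47 apart (adjusted p = 0.282) with values from 877 to 2365 RPKM. These were the 3 members with phase means under 0.5 apart, against 29.4% of tested unigenes. The median range of phase means was 0.93 over the members and 0.65 over all tested unigenes. The scale narrows the ranges of low unigenes, so the figures over all tested unigenes are not on a like footing with the members.

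A small set of members was high at florescence. By the mean of the 9 libraries outside florescence 5 members would not have been among the 100 highest, namely PB.58163.6, PB.57706.22, PB.14304.41, PB.48883.30 and PB.6922.24. By the libraries outside bolting 3 would not, namely PB.56197.9, PB.58233.3 and PB.20844.6, and by those outside seedling or jointing 1 each, PB.20844.6 and PB.58233.3. Comparisons of these members with the phase that brought them in draw on the values that chose them and are given below as a description, with no p, although the counts of calls include them. PB.57706.22 had 727, 871 and 715 RPKM in seedling leaves, 735, 726 and 418 in jointing leaves, 748, 796 and 745 in bolting leaves and 3013, 2849.8 and 3349 in florescence leaves. The 9 libraries before flowering lay between 418 and 871 RPKM and the florescence libraries between 2849.8 and 3349 RPKM, so that the groups did not overlap. Its florescence mean was 3.98 times the seedling mean, 4.90 times the jointing mean and 4.02 times the bolting mean. It was the 1 member called higher at florescence than at seedling, and its position among unigenes outside PB.734 moved between 364 and 23 over the libraries.

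PB.58163.6 and PB.2553.48 were low in the middle phases. PB.58163.6 had 1676, 2442 and 2277 RPKM in seedling leaves, 786, 658 and 336 in jointing leaves, 534, 583 and 486 in bolting leaves and 1913, 2124 and 2945 in florescence leaves. Its jointing and bolting libraries lay below those of seedling and florescence, which overlapped with each other. The difference was -1.91 ± 0.28 (SE; limma, adjusted p = 0.00214) from seedling to jointing, -1.98 ± 0.28 (SE; limma, adjusted p = 0.00471) from seedling to bolting, and the florescence mean was 4.35 times the bolting mean. It was the 1 member called at bolting against seedling.

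PB.2553.48 had 1765, 1865 and 1774 RPKM in seedling leaves, 599.5, 621 and 243 in jointing leaves, 1443, 787 and 772 in bolting leaves and 2184, 1958 and 2004 in florescence leaves. It was lowest at jointing, and its bolting libraries lay between, with replicate 1 above the other bolting libraries. Its difference was -2.001 ± 0.33 (SE; limma, adjusted p = 0.0028) from seedling to jointing, 2.19 ± 0.33 (SE; limma, adjusted p = 0.00048) from jointing to florescence and 1.09 ± 0.33 (SE; limma, adjusted p = 0.0358) from jointing to bolting. The call between jointing and bolting did not pass without jointing replicate 3 (0.65, adjusted p = 0.0899) or without bolting replicate 1 (0.79, adjusted p = 0.134), and with quantile normalization adjusted p was 0.0703.

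The other varying members with their highest mean at florescence were PB.2130.33, PB.3561.47, PB.5626.64, PB.14304.41 and PB.6922.24, listed for that pattern after their values were seen and given as a description. Their differences from jointing to florescence were 1.04, 1.11, 1.503, 1.18 and 1.28 on the log2(RPKM + 1) scale, and from seedling 0.57, 0.68, 0.11, 0.87 and 0.48.

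**Figure D5:**
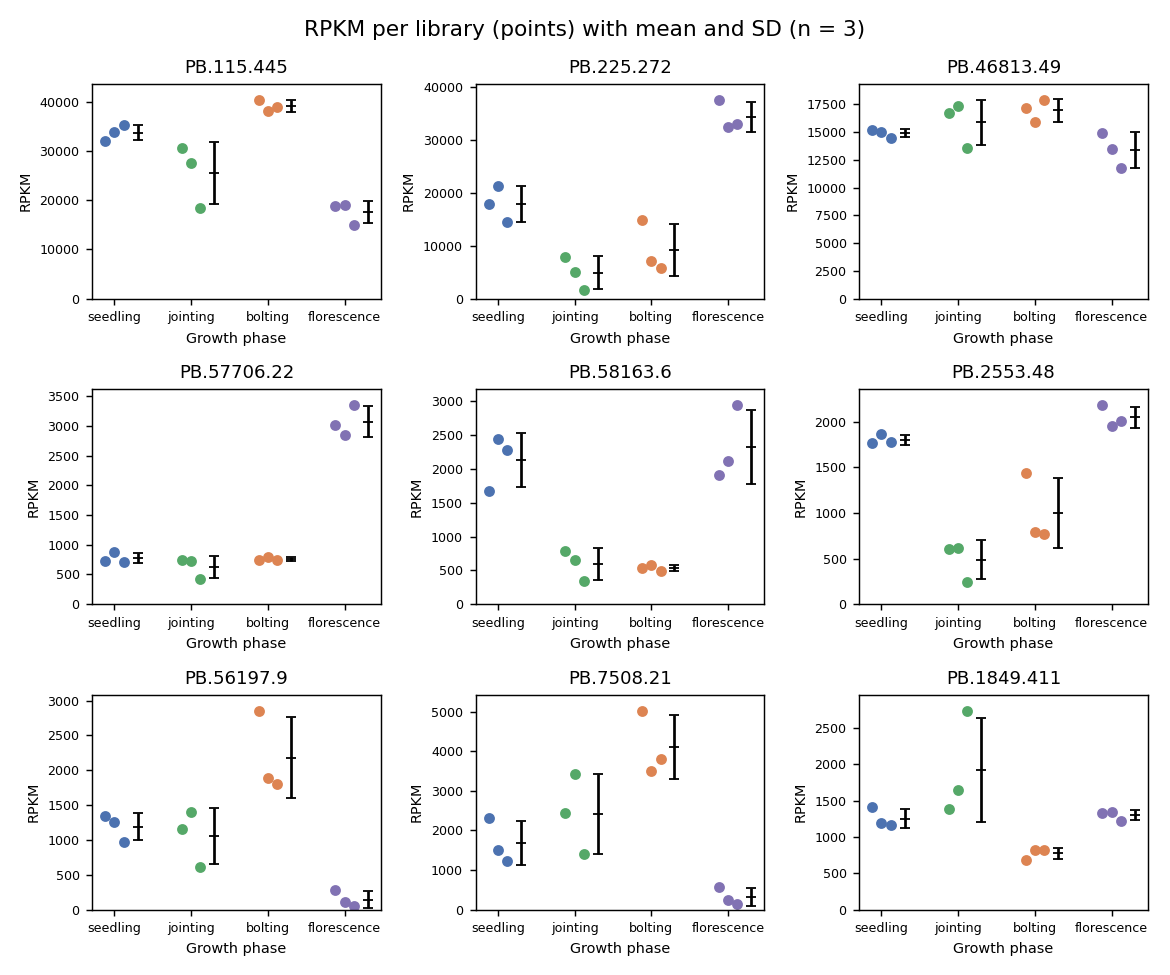
RPKM per library of 9 members by growth phase, as points with the mean and SD of 3 libraries beside them. PB.57706.22 stands between 2849.8 and 3349 RPKM at florescence and at most at 871 RPKM in all other libraries, while PB.56197.9 and PB.7508.21 are lowest at florescence.

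The deepest falls from bolting to florescence among the members were those of PB.56197.9 and PB.7508.21. PB.56197.9 had 1342, 1260.4 and 972 RPKM in seedling leaves, 1154, 1402 and 611 in jointing leaves, 2857, 1885 and 1808 in bolting leaves and 276, 103 and 53.2 in florescence leaves. The bolting libraries lay above all others and the florescence libraries below all others, with florescence replicate 1 the highest of the latter. It fell by 3.35 from seedling (SE 0.49; limma, adjusted p = 0.000406), with a difference of -3.10 from jointing (SE 0.49, adjusted p = 0.000669). From bolting the difference was -4.20, as a description. The ratio of phase means was 15.1 between bolting and florescence, and its position dropped from 59 to 2655 between the libraries where it stood highest and lowest.

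PB.7508.21 had 2308, 1518 and 1241 RPKM in seedling leaves, 2435, 3420.3 and 1401 in jointing leaves, 5029, 3504 and 3805 in bolting leaves and 576, 237 and 148 in florescence leaves. Its florescence libraries lay below all others, and its bolting libraries above all others. It fell by 3.89 from bolting (SE 0.46; limma, adjusted p = 0.000136), with differences of -3.05 from jointing (SE 0.46, adjusted p = 0.000451) and -2.58 from seedling (SE 0.46, adjusted p = 0.00116).

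PB.47167.29 and PB.12313.10 were also called lower at florescence than at bolting. PB.47167.29 had 2117, 1763 and 1884 RPKM in seedling leaves, 2584, 1947 and 549.8 in jointing leaves, 2464, 889 and 1418 in bolting leaves and 582, 166 and 141 in florescence leaves. Jointing replicate 3 overlapped with florescence, and the spread within phases was wide. It fell by 2.998 from seedling (SE 0.63; limma, adjusted p = 0.00283). PB.12313.10 had 2244, 1766 and 1737 RPKM in seedling leaves, 1121, 1283 and 641 in jointing leaves, 2758, 1868 and 2083 in bolting leaves and 670.5, 505 and 379.7 in florescence leaves. Its difference from jointing to florescence was -0.95 ± 0.27 (SE; limma, adjusted p = 0.0201), under 2-fold, with overlapping libraries. It fell by 2.13 from bolting to florescence (SE 0.27; limma, adjusted p = 0.000225) and rose by 1.18 from jointing to bolting (SE 0.27, adjusted p = 0.0192). The rise from jointing did not pass without jointing replicate 3 (0.88, adjusted p = 0.0517) or without bolting replicate 1 (1.02, adjusted p = 0.0782), and with quantile normalization adjusted p was 0.0663.

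PB.1849.411 was the 1 member called lower at bolting than at jointing. It had 1406, 1193 and 1159 RPKM in seedling leaves, 1383, 1639 and 2737 in jointing leaves, 684, 820.3 and 814 in bolting leaves and 1327, 1348 and 1221 in florescence leaves. Jointing replicate 3 was its highest library, and bolting lay below all other phases. It fell by 1.25 from jointing to bolting (SE 0.21; limma, adjusted p = 0.0122), and by 0.97 without jointing replicate 3 (adjusted p = 0.00782), short of 2-fold. With median-of-ratios scaling the difference was -0.91 (adjusted p = 0.0252).

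The spread within phases differed among members. The pooled SD within phases on the log2(RPKM + 1) scale had a median of 0.21 over the members, from 0.11 to 0.93, and a median of 0.19 over all tested unigenes. The widest was that of PB.5488.36, with 3634, 2050.0 and 3477 RPKM in seedling leaves, 1017, 2936 and 605 in jointing leaves, 6502, 1761 and 4307 in bolting leaves and 1372, 349 and 759.5 in florescence leaves. Its libraries overlapped between seedling, jointing and bolting. Its difference of -2.0502 from seedling to florescence (SE 0.65; limma, adjusted p = 0.0227) did not pass without seedling replicate 1 or 3 or florescence replicate 2 or 3, with adjusted p up to 0.0887, nor with quantile normalization (adjusted p = 0.0604).

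Single libraries moved groups of members. Jointing replicate 3 lay at least 1.5 times below both other jointing libraries in 39 members and as far above them in 1, PB.1849.411, against 7.08% and 12.4% of tested unigenes. Bolting replicate 1 lay as far above the other bolting libraries in 6 members (3.42%), among them PB.225.272, PB.2553.48, PB.56197.9, PB.47167.29 and PB.5488.36. Florescence replicate 1 did so in 6 members (3.14%), among them PB.56197.9, PB.7508.21, PB.47167.29 and PB.5488.36. Without florescence replicate 1 the differences from bolting to florescence were -4.83 for PB.56197.9, -4.43 for PB.7508.21 and -3.25 for PB.47167.29.

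In seedling replicate 2 a set of 4 members stood at least 1.5 times above both other seedling libraries, where 1.74% of tested unigenes did. They were PB.52.498, PB.120.157, PB.558.34 and PB.635.86, chosen after their values were seen. PB.120.157 had 3697, 7134 and 2390.2 RPKM, PB.558.34 had 3122, 5651 and 1779.5 RPKM and PB.635.86 had 2113, 4435 and 1229.8 RPKM in seedling replicates 1, 2 and 3. In all 4 members replicate 3 was the lowest of the seedling libraries. At bolting they were closer together, with 4141, 5592 and 6032 RPKM for PB.120.157, 3098, 2887 and 3074 for PB.558.34 and 2350.4, 2605 and 2739.9 for PB.635.86, and their florescence libraries lay below all bolting libraries.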

How the data were processed

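The deposited table gives RPKM for each unigene in 12 leaf libraries, as made by the authors, whose methods elsewhere name FPKM. Per the submitters' notes and the study's methods, short paired reads were mapped with HISAT2 2.05 to unigenes built from long reads of mixed RNA (clustered with ICE, polished with Arrow, made non-redundant with CD-HIT) and quantified with RSEM. No genome was used. Reads shared by near-identical unigenes may be split between them. Library columns were matched to samples by the code in the sample labels, and 0 columns were left unmatched.

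The members were the 100 unigenes with the highest mean RPKM outside identifiers starting with PB.734. The members and all lists were chosen with earlier results of these data known. The test was limma 3.58.1 with a mean-variance trend (R 4.3.3), run on log2(RPKM + 1). The pseudocount of 1 understates changes of low unigenes, so thresholds, ranges and spreads are not alike between the members and all tested unigenes. All 12 libraries entered 1 fit, and the 31242 unigenes that averaged 1 RPKM or more were tested with Benjamini-Hochberg adjustment over all of them. A unigene was called where its adjusted p was under 0.05 and its phases differed by 1 or more, and this procedure was tested on simulated data. The simulated noise was independent between libraries, with no library standing apart as jointing replicate 3 did, so that test does not cover such a library. The samples of a phase are described as independent, with no plant identity given, so p-values measure the spread between these samples. RPKM keeps no read number, so the reads behind each value are unknown and no counting interval is given. The sequenced bases per library that the study states were not used here.

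Unigenes were named by rule: the 10 highest, in each comparison the 2 largest rises and 2 largest falls among called members whose libraries did not overlap, the 3 steadiest, 2 on each side of the limit of 100, and the member with the widest spread within phases. A planned description of isoform shares was void, since each locus number occurs once. Other named unigenes were chosen after their values were seen.

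Same-numbered libraries were checked for pairing by the correlation of their deviations from the phase means. For florescence against seedling the 3 pairs had 0.379, 0.245 and 0.285, all above 0.1. Deviations from a phase mean depend on each other, so these values cannot show that same-numbered libraries are paired. The study describes the samples as independent. The values given are from the fit without the block, and the block ended no call in that comparison. Over the 6 comparisons 7 of 18 pairs exceeded 0.1, from -0.626 to 0.46. Alternatives covered the pseudocount, 4 scalings, the filter, both thresholds, the replicate block, each library left out, and other choices of members. The block in fits on 6 libraries, and counts of members with libraries apart under other scaling or without a library, were added after seeing the data. Figures were drawn with matplotlib 3.10.9.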

Additional observations from a re-analysis of the deposited data

How the results depend on the processing

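No median and no difference of a named member changed sign under the alternatives run on it. Median-of-ratios scaling gave 22 and 51 called members for jointing and florescence against seedling, 8 from jointing to bolting, 58 from bolting to florescence and 78 varying (4.75%, 7.61%, 1.85%, 6.7% and 15.1% of tested unigenes), with medians of -0.76, -0.96, 0.83 and -1.09 for those 4 comparisons. Quantile normalization gave medians of -0.11, -0.11, 0.090 and -0.17 in the same order. Quantile normalization gives every library the same set of values, which draws unigenes chosen as the highest towards no difference. Its medians therefore cannot check a shift shared by the members. The cause of the other changes with scaling was not tested. Without the fold demand 38, 62, 41, 53 and 73 members were called in these comparisons (jointing and florescence against seedling, bolting and florescence against jointing, florescence against bolting), where 45.5%, 49%, 26.7%, 34.7% and 43.2% of tested unigenes were, and 88 varied against 69.1%. For jointing against seedling 3 were higher and 35 lower (39.5% and 5.94% of tested unigenes). For florescence against seedling these were 7 and 55 (41.1% and 7.89%). From jointing they were 39 and 2 at bolting (2.2% and 24.5%) and 22 and 31 at florescence (18.6% and 16.1%). From bolting to florescence they were 11 and 62 (35.9% and 7.24%). For bolting against seedling 1 member was called, lower, against 4.25%. At an adjusted p under 0.01 limma called 0 for bolting against jointing, where 68 had an unadjusted p under 0.05. With 50 members, where fewer can be called, the counts were 2, 0, 8, 0, 8 and 16 and 18 varied, and with 200 they were 13, 6, 40, 12, 49 and 56 and 79 varied (jointing, bolting and florescence against seedling, bolting and florescence against jointing, florescence against bolting). In that same order 5.63%, 1.46%, 9.43%, 3.27%, 10.3% and 8.06% of tested unigenes were called, and 18.3% varied. Members chosen from the 6 libraries outside the comparison gave 4 calls for bolting against seedling and 5 for bolting against jointing, where 1.46% and 3.27% of tested unigenes were called. A fit on 6 libraries gave 2 and 0 calls for these comparisons, and 2 and 0 with a replicate block, with 39 and 28 members at an unadjusted p under 0.05 for bolting against jointing (limma). The replicate block in the fit on 12 libraries gave 5, 1, 23, 4, 23 and 34 calls and 41 varying members, and no count moved by over 1.5 times. Shares of tested unigenes are not given for the fits on 6 libraries or with the block, so these counts describe the members alone. Outside PB.734 the share of the members was 39.7% at seedling and 42.5% at bolting.

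Leaving out single libraries gave 4 to 8 calls for jointing against seedling (4 without jointing replicate 3, 8 without jointing replicate 2), 1 to 1 for bolting against seedling, 16 to 31 for florescence against seedling, 0 to 8 from jointing to bolting (0 without jointing replicate 3, 8 without jointing replicate 1), 17 to 28 from jointing to florescence (28 without jointing replicate 3) and 28 to 39 from bolting to florescence, with 37 to 46 varying. Without jointing replicate 3 the shares of tested unigenes called were 3.05% for jointing against seedling, 1.25% from jointing to bolting and 9.49% from jointing to florescence. The share varying was then 16%. Shares are not given for the other libraries left out, so those ranges describe only how far the counts move. The median for jointing against seedling ran from -0.48 to -0.14, the latter without jointing replicate 3.

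The read number behind each value is unknown, and 3 libraries a phase limit the precision.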
